A study of Mus musculus with 4 samples.

Results

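Chemokines are small secreted proteins that steer white blood cells, and their receptors are G protein-coupled receptors on the surface of the cells that follow them. The family was taken from the array as every probe whose listed name is that of a chemokine or chemokine receptor of the CC, CXC, CX3C or XC class, together with the platelet chemokine genes Pf4 and Ppbp. Described here are 72 of the 45281 probes, which carry 52 of the 31492 listed names, 38 of them ligands (57 probes) and 14 receptors (15 probes), and every count of members below is over these. The members were chosen by name and not by a measured value, but with earlier results of these data known. All arrays were made from subcutaneous white adipose tissue of C57BL/6 mice aged 8 to 12 weeks. The mice of both groups ate a high-fat diet containing doxycycline for 3 weeks. The FtMT-Adip group carried a fat-specific mitochondrial ferritin transgene, which is meant to make an iron-storing protein inside the mitochondria of fat cells. The wild-type (WT) group was labelled as non-transgenic controls on the same diet. Each group had 2 arrays, numbered as replicates. The labels name neither the promoter that drives the transgene nor the number of mice behind an array, so the p-values below measure the spread between these arrays, which may be technical.

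The 4 arrays had similar total signals of 14143397 to 15086032. Across the tested probes, values correlated at 0.989 between the FtMT-Adip arrays, 0.988 between the WT arrays and 0.959 to 0.974 between groups. All 8 adipocyte markers with a probe were tested, and all but Fabp4 were above background on all 4 arrays, as the labelled tissue requires. Fabp4 passed only through the WT arrays, at 146.8 and 138.5 there and 113.4 and 119.6 in FtMT-Adip. With 2 arrays a group, precision is limited throughout, and fewer cells of a type cannot be told apart from less RNA per cell in whole tissue.

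In fat, chemokine ligands can be made by adipocytes, stromal cells, endothelium and the immune cells themselves, and several of them rise during diet-induced obesity. CC ligands such as Ccl2 draw monocytes through the receptor Ccr2, while Ccl3, Ccl4 and Ccl5 attract macrophages and T cells. Most CXC ligands act either on neutrophils through Cxcr2 or on activated T cells through Cxcr3, and Cxcl12 and Cxcl13 serve the homeostatic positioning of cells.

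In FtMT-Adip fat the inflammatory CC ligands Ccl3, Ccl4, Ccl8, Ccl9 and Ccl12 were higher than in WT fat. So were the CXC ligands Cxcl2, Cxcl10 and Pf4. The clearest of these was Ccl4, whose brighter probe was 4.22-fold higher. The adipose chemokine Cxcl14 was lower, by 2.08-fold. Other well-measured ligands, among them Ccl5, Ccl11, Ccl19, the Ccl21 copies, Cxcl9 and Cxcl12, did not pass the test. Changes were tested with limma, a linear model that shares the spread across probes, with p-values adjusted by Benjamini-Hochberg across the 20797 probes tested and a threshold of 0.05. A probe was tested when it exceeded the 95th percentile of olfactory and vomeronasal receptor probes, which stand for genes not used in fat, on at least 2 of the 4 arrays. By this test 10 member probes (8 genes) were higher and 1 was lower among 50 tested. That is 20% and 2% of the tested members, where 3.28% and 4.16% of all tested probes were called higher and lower, and 7.44% in either direction. At an unadjusted p under 0.05 there were 18 higher and 2 lower member probes. The median log2 change was 0.187 over the tested members and 0.00489 over all tested probes. Of the 10 higher probes, 3 passed the background filter only through the FtMT-Adip arrays, so their selection itself favoured a higher value there.

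**Figure D1:**
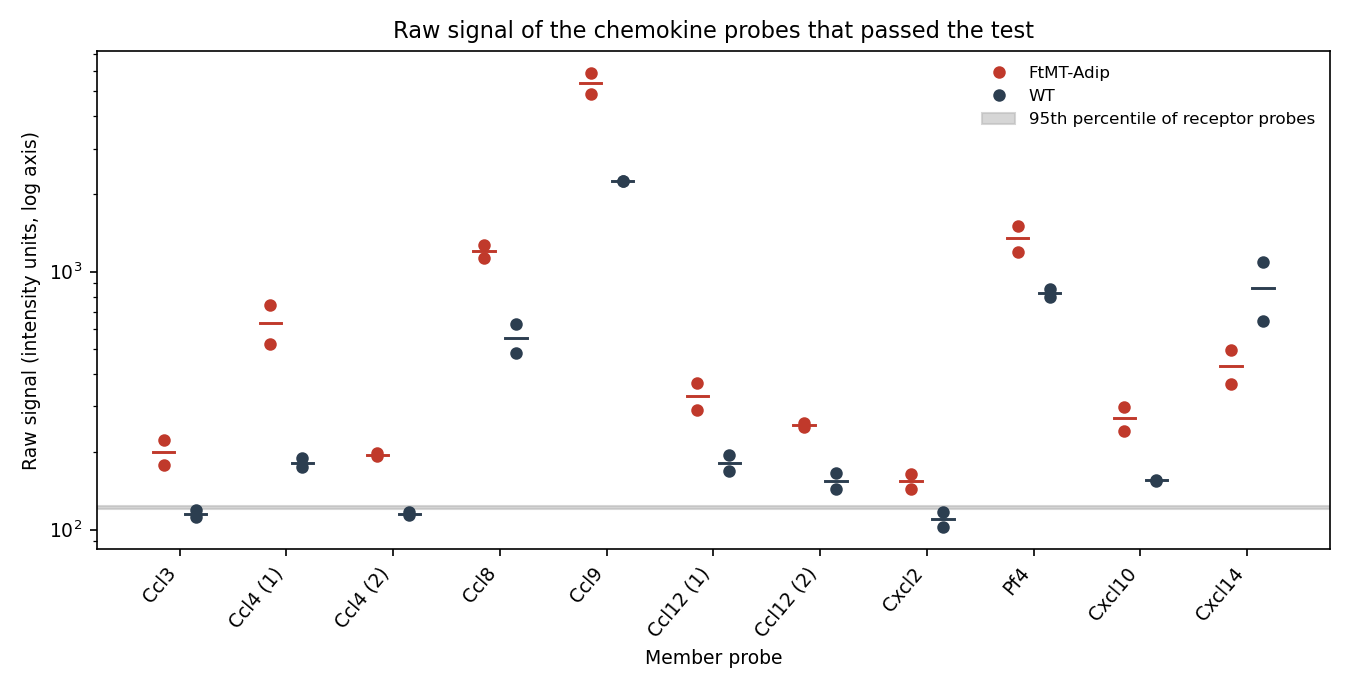
Raw signal (log axis) on each of the 4 arrays for the 11 member probes that passed the test, FtMT-Adip left of WT, with a dash at each group mean and numbers in brackets for probes of the same gene in the order of their probe IDs. The grey band marks the 95th percentile of receptor probes, 119.6 to 123.5, and the WT points of Ccl3, the second Ccl4 probe and Cxcl2 lie below it.

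The question which members rise above background was answered probe by probe. Background, taken from 1479 receptor probes at their 95th percentile, was 120.7 and 123.5 on the FtMT-Adip arrays and 120.8 and 119.6 on the WT arrays. Above it were 50 and 49 member probes on the FtMT-Adip arrays and 46 and 46 on the WT arrays. On at least 2 arrays 50 member probes (36 names) passed, or 69.4% of the members against 45.9% of all probes, and 42 passed on all 4. The other 22 probes read 96.5 to 127.9, of which 19 were above background on no array and 3 on a single one. In all, 16 names had no tested probe. The ligands among them were Ccl1, Ccl20, Ccl22, Ccl26 (listed as CCL26L), Ccl28, Cxcl5, Cxcl11 and Cxcl15. The receptors were Ccr1, Ccr1l1, Ccr2, Ccr3, Ccr4, Ccr8, Ccr9 and Xcr1. These were not well above background, which is a limit of the probes and does not show that the transcripts are absent. Among them is Ccr2, the monocyte receptor for Ccl2, at 98.4 and 101.6 in FtMT-Adip and 103.4 and 104.7 in WT. A second probe of Cxcl2, Cxcl10 and Ppbp and 2 of the 5 probes of Cxcl12 were also not tested.

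Among the macrophage inflammatory proteins, Ccl4 (macrophage inflammatory protein 1 beta) showed the largest difference. Its probe ILMN_1223257 read 739.3 and 522.5 in FtMT-Adip, against 174.8 and 188.9 in WT. Both transgenic arrays lay far above both controls (log2 change 2.08, SE 0.222, adjusted p = 0.00142 by limma). Its second probe, ILMN_1224472, read 197.9 and 192.3 in FtMT-Adip and 116.5 and 114.2 in WT. The WT values were not above background, so the difference is given as a bound, against the lowest signal above background on each WT array, of at least 1.98-fold (adjusted p = 0.00126 by limma). Ccl3 (macrophage inflammatory protein 1 alpha, ILMN_1253919) read 222.3 and 177.6 in FtMT-Adip, against 111.6 and 118.7 in WT. It too was above background only in the transgenic arrays, and was at least 2.03-fold higher (adjusted p = 0.00546 by limma). Ccl5, an attractant of T cells, read 1584.2 and 1944.9 in FtMT-Adip and 1388.1 and 1790.6 in WT. These groups overlapped (log2 change 0.21, SE 0.188, adjusted p = 0.584 by limma).

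The ligands that attract monocytes and macrophages changed in part. Ccl9, a rodent CC chemokine that acts on Ccr1 (ILMN_2776603), read 5872.9 and 4882.4 in FtMT-Adip, against 2249.6 and 2252.7 in WT. The WT arrays nearly coincided and the FtMT-Adip arrays lay well above them (log2 change 1.34, SE 0.165, adjusted p = 0.0026 by limma). Its relative Ccl6 read 462.8 and 443.4 in FtMT-Adip and 271.4 and 375.6 in WT. The groups did not overlap and the difference did not pass (log2 change 0.55, SE 0.211, adjusted p = 0.174 by limma). It depended on which WT array was left out, at 0.24 without WT 1 and 0.85 without WT 2.

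Of the monocyte chemoattractant proteins, Ccl12, a mouse ligand of Ccr2, was higher on both of its probes. ILMN_2771766 read 289.5 and 369.8 in FtMT-Adip and 195 and 168.4 in WT, a 2.03-fold difference (adjusted p = 0.00822 by limma). ILMN_3161805 read 257.8 and 249.6 in FtMT-Adip and 165.4 and 143.7 in WT, a 1.90-fold difference (adjusted p = 0.00822 by limma). Ccl8, which in mice acts on Ccr8 (ILMN_1238886), read 1267.4 and 1133.3 in FtMT-Adip, against 483.8 and 626.3 in WT. It was 2.29-fold higher with separate groups (log2 change 1.19, SE 0.201, adjusted p = 0.00945 by limma).

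Ccl2, the best known monocyte attractant of obese fat (ILMN_1245710), read 213.6 and 188.9 in FtMT-Adip and 166.8 and 155.3 in WT. The groups were separate but the difference was small (log2 change 0.41, SE 0.149, adjusted p = 0.152 by limma). Ccl7, another Ccr2 ligand, read 538.9 and 398.8 in FtMT-Adip and 398.1 and 234.6 in WT on ILMN_2835117. Its change of 0.66 (SE 0.284, adjusted p = 0.219 by limma) did not pass, and its other probe had overlapping groups and a change of 0.37. The outcome of the test for both Ccl7 probes depended on whether WT 1 was included.

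The eosinophil attractants, which act on Ccr3, did not pass. Ccl11 (eotaxin) read 1562.6 and 1270.9 in FtMT-Adip, against 1816.7 and 1355.9 in WT, on its brighter probe ILMN_2647757. The groups overlapped on this and on its other probe (log2 changes -0.11 and -0.21). Ccl24 stood at -0.09.

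Ligands of lymphoid tissue were readily measured and did not pass either. Ccl19 and the Ccl21 genes attract dendritic cells and naive T cells through Ccr7. The near-identical copies Ccl21a, Ccl21b and Ccl21c cannot be assumed to be told apart by these probes. The Ccl21b probe ILMN_1213286 read 2069.7 and 2557.7 in FtMT-Adip, against 2033.4 and 2215 in WT, with overlapping groups and a log2 change of 0.20 (SE 0.159). The Ccl21a probe ILMN_2602139 read 968.1 and 1428.6 in FtMT-Adip and 980.9 and 1209.7 in WT (log2 change 0.14, SE 0.209). The Ccl21c probes stood at 0.10 and 0.13. The Ccl19 probes stood at -0.05 and 0.28, and both had overlapping groups. Cxcl13, which draws B cells through Cxcr5, read 680 and 920.3 in FtMT-Adip and 662.9 and 634.8 in WT (log2 change 0.29, SE 0.171, adjusted p = 0.382 by limma).

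Of the interferon-inducible ligands of Cxcr3, Cxcl10 passed the test. Cxcl10 (ILMN_3142803) read 241.2 and 299 in FtMT-Adip, against 154.8 and 155.8 in WT. Both transgenic arrays were clearly above the controls, by 1.99-fold (log2 SE 0.149, adjusted p = 0.00569 by limma). Cxcl9 (ILMN_1215862) read 1104.3 and 1351.7 in FtMT-Adip, against 1128.9 and 1286.2 in WT. The groups interleaved (log2 change 0.05, SE 0.169, adjusted p = 0.908 by limma). Cxcl11 was not above background. Whether the changes of Cxcl10 and Cxcl9 differ from each other was not tested. The receptor Cxcr3 read 213.7 and 207.7 in FtMT-Adip and 147.3 and 194.2 in WT (log2 change 0.40, SE 0.197, adjusted p = 0.29 by limma).

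Of the neutrophil attractants, Cxcl2 (ILMN_2778289) read 164.8 and 143.5 in FtMT-Adip, against 116.7 and 102.6 in WT. The WT arrays were not above background, and the bound is at least 1.43-fold higher (adjusted p = 0.0151 by limma). That call was lost without WT 2. Its close relative Cxcl1 read 195.2 and 242.7 in FtMT-Adip, against 344.8 and 201.3 in WT. Here the highest value was a WT array (log2 change -0.37, SE 0.263, adjusted p = 0.487 by limma). The platelet chemokine Pf4, listed as CXCL4 (ILMN_2757966), read 1502.8 and 1192.2 in FtMT-Adip and 853.8 and 800.6 in WT. It passed narrowly (log2 change 0.75, SE 0.185, adjusted p = 0.0428 by limma). The call of Pf4 was lost without WT 1, WT 2 or FtMT-Adip 1, with changes of 0.52 to 0.99 over the left-out arrays. The other platelet chemokine, Ppbp, read close to background and stood at -0.095.

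Cxcl14, a constitutive chemokine of epithelia and fat, was the member that fell. Its probe ILMN_2760800 read 368.3 and 496.7 in FtMT-Adip, against 1087.4 and 640.9 in WT. The groups were separate but the WT arrays lay far apart (log2 change -1.06, SE 0.234, adjusted p = 0.0284 by limma). The second probe, ILMN_2659426, read 179.4 and 199.1 in FtMT-Adip and 285.6 and 218.8 in WT, with a change of -0.54 (SE 0.172, adjusted p = 0.104 by limma). The call was lost without WT 1 (change -0.72) and without FtMT-Adip 1, and the change reached -1.39 over the left-out arrays. Adipocyte transcripts moved the same way in these arrays. Of 8 tested adipocyte markers 6 were lower. Among them Fabp4 passed the background filter only through the WT arrays, so its selection itself favoured a lower value in FtMT-Adip. The summed raw signal of the 8 markers was 30114 and 45004 in FtMT-Adip and 102641 and 84493 in WT. The part of that shift in the result for Cxcl14 was not tested.

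Several other ligands had positive changes that did not pass. Cxcl16, a membrane-bound ligand that also takes up oxidised lipoproteins, read 582.4 and 634.9 in FtMT-Adip and 369.6 and 428.8 in WT on ILMN_2687586. It missed the threshold by little (log2 change 0.63, SE 0.166, adjusted p = 0.0532 by limma). Its other tested probes stood at 0.31 and 0.08. Xcl1, made by T and natural killer cells, read 151.3 and 146.8 in FtMT-Adip and 125.3 and 126.6 in WT (log2 change 0.35, SE 0.106, adjusted p = 0.0917 by limma). Ccl25, known from thymus and gut, stood at 0.31 and 0.29 on its probes, with separate groups on each. The remaining tested ligands were Ccl17, Ccl27a and Cx3cl1. Ccl17, a ligand of Ccr4 that passed the background filter only through the WT arrays, stood at -0.04. Cx3cl1, the membrane-bound ligand of Cx3cr1, stood at 0.06, and the Ccl27a probes, which may also read the near-identical Ccl27b, at 0.09 and 0.13.

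Cxcl12, the stromal ligand of Cxcr4, has 5 probes on the array, of which 3 were tested. The brightest, ILMN_2658908, read 1694.3 and 1722.2 in FtMT-Adip and 1626.7 and 1462 in WT (log2 change 0.21, SE 0.147, adjusted p = 0.485 by limma). The groups were separate by little, and the other tested probes stood at 0.16 and 0.04. Cxcr4 read 195.6 and 216.1 in FtMT-Adip and 184.5 and 184.5 in WT (log2 change 0.17, SE 0.135, adjusted p = 0.534 by limma). Cx3cr1, the receptor of resident macrophages and monocytes for Cx3cl1, read 132.8 and 133.3 in FtMT-Adip and 130 and 122.7 in WT, close to background (log2 change 0.10). The remaining tested receptors were Ccr6, Ccr7 and Cxcr6, with log2 changes of -0.11 to 0.02 and overlapping groups. Of the 7 tested receptor probes described here, 0 were called by limma, where 7.44% of all tested probes were called in either direction. At an unadjusted p under 0.05 there were 0 as well. With 7 probes these counts do not set the receptors apart from all tested probes. Without WT 2, Cxcr3 was called higher, and in the authors' normalized values its change was 0.96 (adjusted p = 0.0797 by limma).

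**Figure D2:**
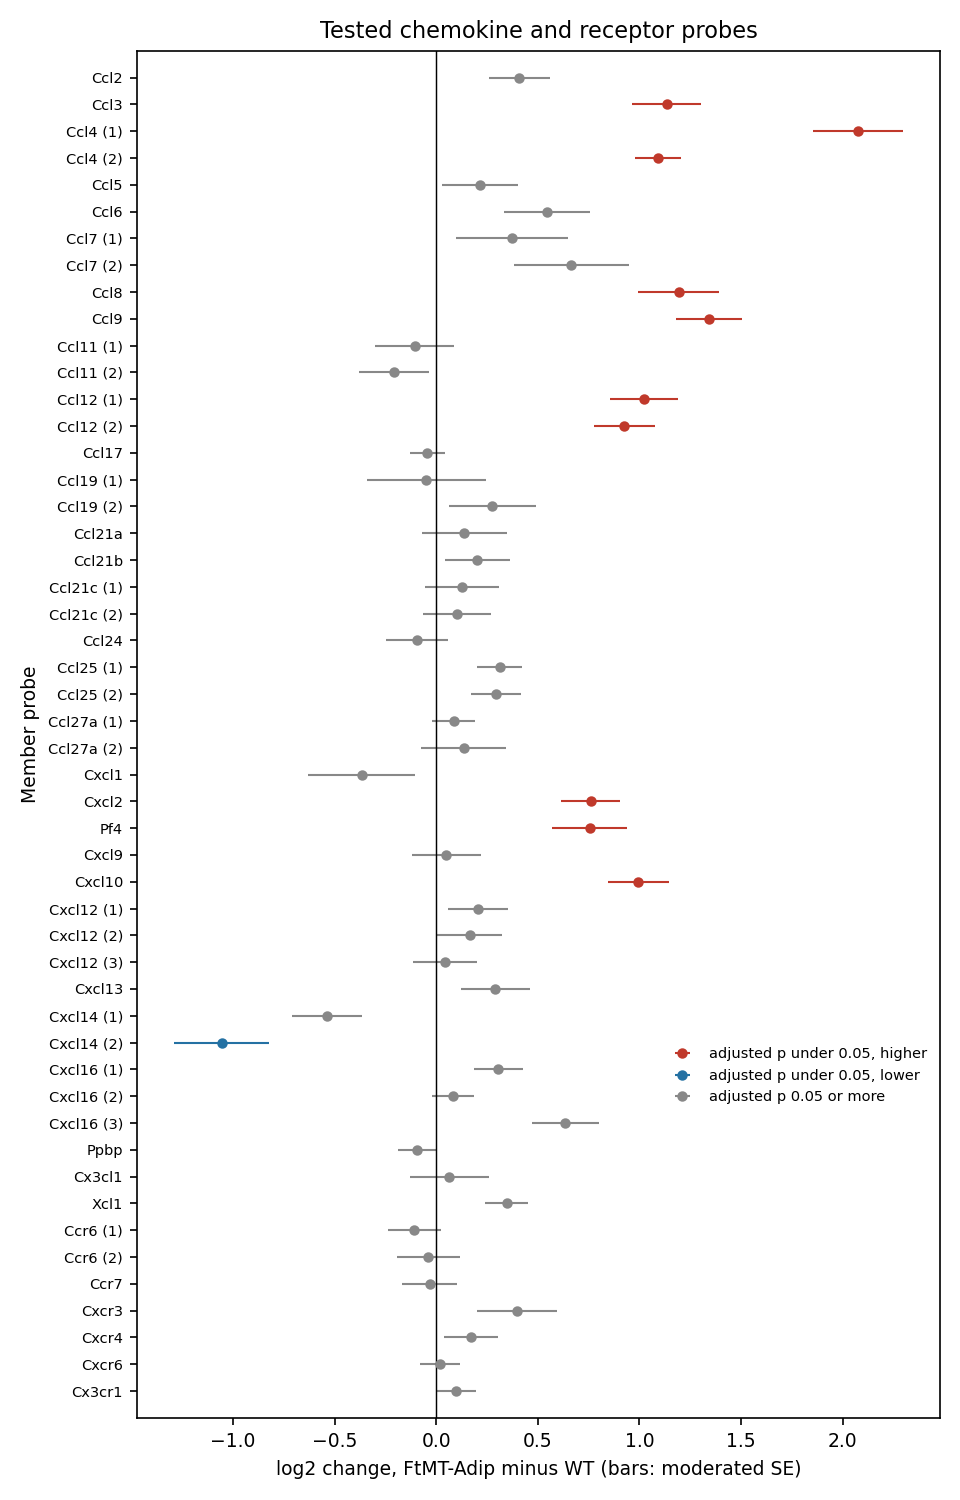
Log2 change, FtMT-Adip minus WT, for the 50 tested member probes, with the moderated standard error from limma as bars, ligands above receptors and numbers in brackets for probes of the same gene. Red points passed upward, the blue point (Cxcl14) passed downward and grey points did not pass; the grey points lie between -0.54 and 0.66.

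Whether a group's arrays overlap gives a view that does not depend on the model. The raw signal was higher in both FtMT-Adip arrays than in both WT arrays for 25 of the 50 tested member probes and lower for 2. Over all tested probes the shares were 27.3% and 21.3%. Of the 39 member probes that were not called, 15 were separate upward and 1 downward, and their log2 changes ranged from -0.54 to 0.66.

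Many chemokine genes lie side by side, and the RefSeq annotation of GRCm38.p6 was used to find which members are neighbours. Members formed 9 blocks with at most 5 other genes between neighbours, and the 3 with at least 3 tested genes are described. Of the other blocks, only that of Cxcl9 and Cxcl10 held a called gene, Cxcl10. The first CC block holds Ccl2, Ccl7, Ccl11, Ccl12, Ccl8 and Ccl1 in this order. Its higher genes, Ccl12 and Ccl8, are adjacent, next to Ccl11 with a change of -0.11. The second block holds Ccl5, Ccl9, Ccl6, Ccl3 and Ccl4. Here 3 of 5 tested genes were higher, Ccl9, Ccl3 and Ccl4, where 3.57% of all tested genes were higher by their brightest probe. The CXC block from Cxcl5 to Cxcl2 held 2 higher genes, Pf4 and Cxcl2, each beside a neighbour that did not pass, Ppbp and Cxcl1. Ppbp read close to background, at 119.2 and 128.5 in FtMT-Adip and 127.4 and 128 in WT. Of the higher genes in these blocks, Ccl3 and Cxcl2 passed the background filter only through the FtMT-Adip arrays. In the authors' normalized values Ccl3, Ccl9, Ccl12 and Pf4 were not called.

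**Figure D3:**
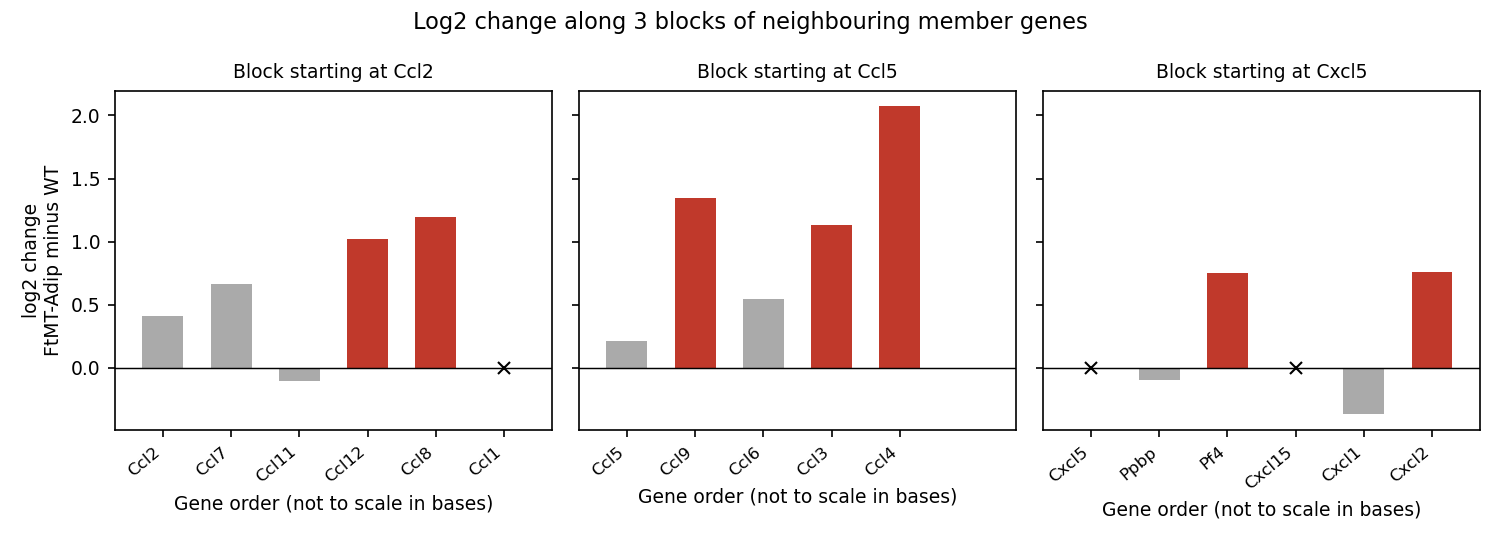
Log2 change (FtMT-Adip minus WT, brightest tested probe per gene) along the 3 blocks of neighbouring members with at least 3 tested genes. Genes are in order and not to scale in bases. Red bars passed the test, grey bars did not and crosses mark genes not above background; the bars of Ccl3 and Cxcl2 are fitted values against WT signals at background.

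The start regions of some of these genes are shown because inflammatory chemokines are textbook targets of NF-kB, the transcription factor of inflammatory signalling, and Cxcl10 of interferon-activated factors. RefSeq promoter windows of GRCm38.p6, which run from 250 bases before to 50 bases after a gene's start, were matched by symbol for 40 of the 52 member genes (44 windows) and 8 of the 9 called genes. The motifs were searched on both strands by name, as the NF-kB site, the core of the interferon-stimulated response element (ISRE) and the GAS site. Overlapping matches were each counted. The NF-kB site was found in 10 of 44 member windows (22.7%), against 8.46% of all 32851 windows. The ISRE core was found in 3 (6.82%, against 3.44%) and the GAS site in 4 (9.09%, against 8.3%). The windows with an ISRE core were those of Cxcl10, of Ccl19, which was not called, and of Cxcl14, which was lower. The Cxcl14 window also held a GAS site. Of the 7 windows of genes called higher, 3 held an NF-kB site, those of Ccl9, Cxcl2 and Cxcl10. Cxcl1, which did not pass, holds one as well. These windows are printed 5′ to 3′ with the NF-kB sites in capitals, and in Cxcl10 also the ISRE core, which is the first run of capitals there. The Cxcl10 window is chr5:92348840-92349139 on the minus strand, Cxcl2 is chr5:90903649-90903948 on the plus strand, Cxcl1 is chr5:90890995-90891294 on the plus strand and Ccl9 is chr11:83578587-83578886 on the minus strand.
Cxcl10: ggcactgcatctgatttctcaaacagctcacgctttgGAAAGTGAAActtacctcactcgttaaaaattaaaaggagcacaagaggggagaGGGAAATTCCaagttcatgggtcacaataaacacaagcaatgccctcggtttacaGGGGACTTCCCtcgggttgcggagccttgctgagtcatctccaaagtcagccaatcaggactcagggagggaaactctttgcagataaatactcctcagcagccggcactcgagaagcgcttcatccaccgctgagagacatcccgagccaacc
Cxcl2: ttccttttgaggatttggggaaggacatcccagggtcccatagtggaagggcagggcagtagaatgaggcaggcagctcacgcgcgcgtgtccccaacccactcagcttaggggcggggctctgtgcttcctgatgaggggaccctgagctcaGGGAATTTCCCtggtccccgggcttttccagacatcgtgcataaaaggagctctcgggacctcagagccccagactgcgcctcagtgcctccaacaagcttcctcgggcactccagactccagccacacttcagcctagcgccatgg
Cxcl1: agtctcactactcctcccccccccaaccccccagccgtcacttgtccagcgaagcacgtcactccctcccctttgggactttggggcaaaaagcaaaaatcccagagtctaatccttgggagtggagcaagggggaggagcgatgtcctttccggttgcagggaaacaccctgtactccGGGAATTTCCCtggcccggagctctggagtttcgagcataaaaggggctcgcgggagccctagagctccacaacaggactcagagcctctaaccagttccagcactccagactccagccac
Ccl9: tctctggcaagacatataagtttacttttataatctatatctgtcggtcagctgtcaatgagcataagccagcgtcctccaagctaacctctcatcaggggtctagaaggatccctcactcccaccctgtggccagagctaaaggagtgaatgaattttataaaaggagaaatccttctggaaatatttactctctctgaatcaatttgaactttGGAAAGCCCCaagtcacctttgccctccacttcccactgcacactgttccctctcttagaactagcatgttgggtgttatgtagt
Counted in bases from the start site, the ISRE core of Cxcl10 begins at -213 and its NF-kB matches at -159, -104 and -103, of which the last 2 overlap. The overlapping matches begin at -97 and -96 in Cxcl2 and at -71 and -70 in Cxcl1, and the match in Ccl9 begins at -35. The capitals of Cxcl1 and Cxcl2 are the same letters, while of their tested probes that of Cxcl2 passed and that of Cxcl1 did not. Among windows of genes tested and not called, 3 of 23 (13%) held an NF-kB site. No match was found in the windows of Ccl3, Ccl8, Ccl12 and Pf4, which says only that these letters are not in this stretch.

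Genes that work beside chemokines were described from a list chosen by function. The list of partners holds 91 genes for other chemoattractant receptors, signalling, adhesion, inducers and chemokine trimming. Of 69 tested genes, 6 were higher and 1 was lower, against 3.57% and 4.29% of all tested genes by their brightest probe (20 and 3 at an unadjusted p under 0.05). Of the 6, C5ar1 passed the background filter only through the FtMT-Adip arrays, so its selection itself favoured a higher value there. Their median log2 change was 0.214, against 0.0135 over all genes. Rgs1, which dampens chemokine receptor signalling in leukocytes, was 3.28-fold higher (adjusted p = 0.00336 by limma). Irf7, a transcription factor of the interferon response, was 3.23-fold higher (adjusted p = 0.000656 by limma). Fpr2, a receptor for formyl peptides, read 282.2 and 180.6 in FtMT-Adip and 127.9 and 115.9 in WT, of which WT 2 was not above background, and it passed upward (adjusted p = 0.0206 by limma). Was, a regulator of actin in blood cells, was 1.53-fold higher (adjusted p = 0.0454 by limma). The leukocyte integrin gene Itgb2 (log2 change 0.57) also passed upward. The complement receptor gene C5ar1 passed too, at 148 and 135.2 in FtMT-Adip and 117.5 and 109.3 in WT, where it was not above background. Rarres2, which encodes the adipokine and chemoattractant chemerin, read 4844 and 5376.1 in FtMT-Adip, against 10542.6 and 9313.5 in WT, and was 1.90-fold lower (adjusted p = 0.0048 by limma).

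Chemokine receptors listed under older names were in that list and not among the members. Cxcr5 (log2 change 0.21) and the scavenger receptors Ackr1 (0.54), Ackr3 (-0.22), Ackr4 (0.09) and Ccrl2 (-0.02) did not pass. Cxcr2 and Ccr10 were not above background. This group of the list, of family members and scavengers outside the naming rule, also holds Ccbp2, Gpr35, Cmtm3, Cmtm7 and Cklf. In it 0 of 10 tested genes were called by limma, where 3.57% and 4.29% of all tested genes were higher and lower. The 3 genes that were higher at an unadjusted p under 0.05 were Ackr1, Cmtm3 and Cmtm7. The inducers Tnf (0.36) and Il1b (0.25) and the NF-kB genes Nfkb1 (-0.03), Rela (-0.06) and Nfkbia (0.06) did not pass, and Il6 and Ifng were not above background on at least 2 arrays.

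Markers of other cells moved in the same arrays as the chemokines. Of 11 tested macrophage markers 8 were higher, where 3.57% and 4.29% of all tested genes were higher and lower by their brightest probe. Itgax was above background on 3 arrays and the other markers on all 4. Summed raw signal was 37531 and 33813 in FtMT-Adip, against 21051 and 22691 in WT. Much of that sum came from the lysozyme gene Lyz1, at 20823.1 and 18560.9 in FtMT-Adip and 13177.9 and 14423.1 in WT. Cd68, a lysosomal protein of macrophages, was 3.56-fold higher (adjusted p = 0.000656 by limma), and Adgre1, a surface receptor of macrophages, 3.13-fold higher (adjusted p = 0.00466 by limma). Fcgr1 (log2 change 1.31) and Lyz2 (1.03) also passed upward. The list's median log2 change was 0.967, and its part in the results for the higher ligands was not tested. Mast cell markers had 3 of 6 higher, Cma1 (1.39), Cpa3 (1.35) and Mcpt4 (1.26), and 1 lower, Kit (-0.67). In the monocyte list Plac8 was higher (1.51), 1 of 4 tested.

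Lymphocyte markers did not pass the test. By limma 0 of 9 T cell markers and 0 of 4 B cell markers were called, with 1 and 0 at an unadjusted p under 0.05. Summed T cell signal was 4518 and 6162 in FtMT-Adip and 4554 and 5640 in WT. Of 4 tested neutrophil markers 1 was lower, S100a8, while the neutrophil attractant Cxcl2 was higher. At an unadjusted p under 0.05, 1 neutrophil marker was higher (Csf3r, log2 change 0.24) and 1 was lower (S100a8). For dendritic cells 0 of 5 tested markers were called (0 at an unadjusted p under 0.05). The single tested natural killer marker was not called, and neither were the 4 of lymphatic vessel and lymph node stroma. Endothelial markers had 3 of 7 lower (Cdh5, log2 change -1.02), eosinophil markers 1 of 3 lower (Prg2, -0.50, not above background on FtMT-Adip 1), and red blood cell markers 3 of 3 lower (Hba-a1, -1.06). Fibroblast markers had 1 higher (Ly6a, 0.88) and 1 lower (Dpt, -0.98) of 7. In the muscle list Acta1 was higher (1.76), and that list's summed signal was 4596 and 1777 in FtMT-Adip against 1046 and 1065 in WT, highest in FtMT-Adip 1.

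**Figure D4:**
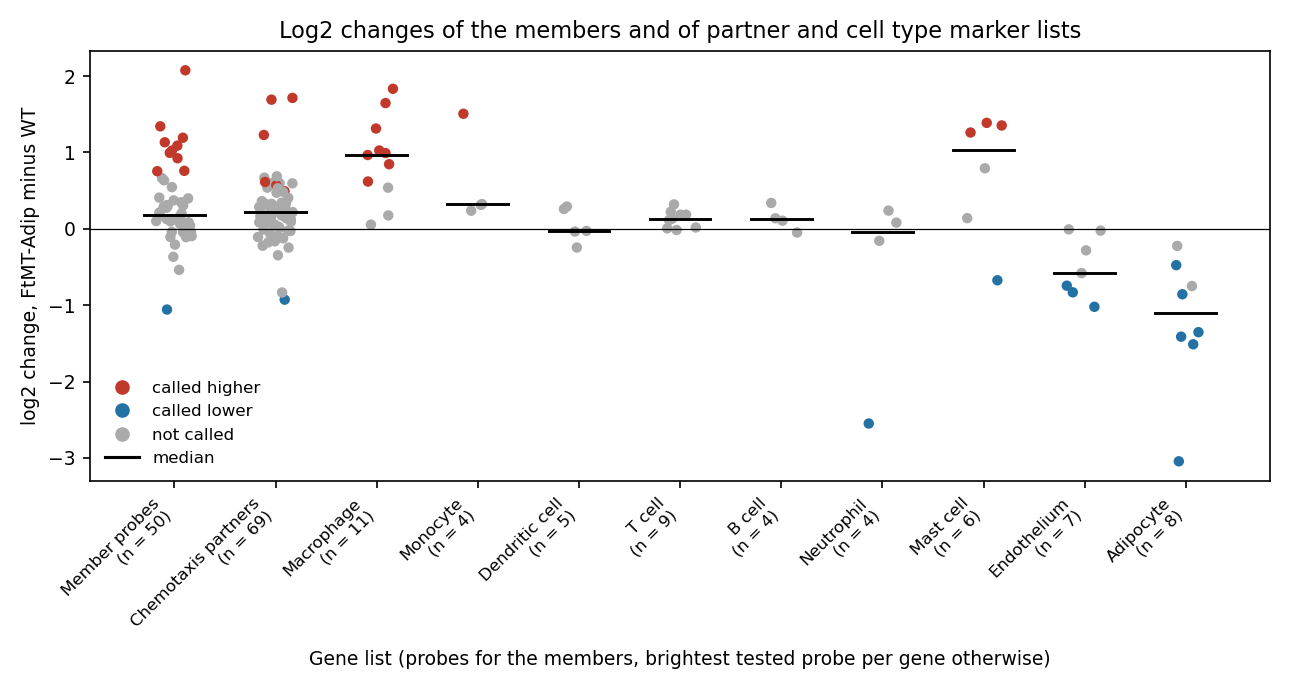
Log2 change, FtMT-Adip minus WT, of the 50 tested member probes and of the brightest tested probe per gene in the partner list and 9 cell type marker lists, with a black line at each median and n tested under each name. Red and blue points passed the test upward and downward; the macrophage median is 0.967 and the adipocyte median -1.1.

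The authors' normalized table gave the same direction for all 11 called probes but fewer calls. It holds the same arrays on which these probes were picked, so the shared direction is not independent support. With limma on its values, 5 member probes were higher and 1 was lower, all among the 11, against 1.55% and 1.81% of all tested probes. Kept were both probes of Ccl4, Ccl8, Cxcl2, Cxcl10 and Cxcl14. Ccl3, Ccl9, Ccl12 and Pf4 were not called there. For Ccl9 the change was 0.80 in those values (adjusted p = 0.136 by limma). The ratios in the authors' deposited table were 5.77 for the brighter Ccl4 probe, 2.61 for Ccl8, 2.89 for Cxcl10, 1.81 for Ccl9 and 0.391 for Cxcl14. The unadjusted p in the authors' deposited table was 0.00304 for Cxcl2, 0.0243 for Ccl12 (ILMN_3161805) and 0.0398 for Ccl4 (ILMN_1224472), the 3 tested members under 0.05. With Benjamini-Hochberg adjustment of those deposited p-values, an equal-variance test on each probe alone, 0 of all tested probes passed.

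**Figure D5:**
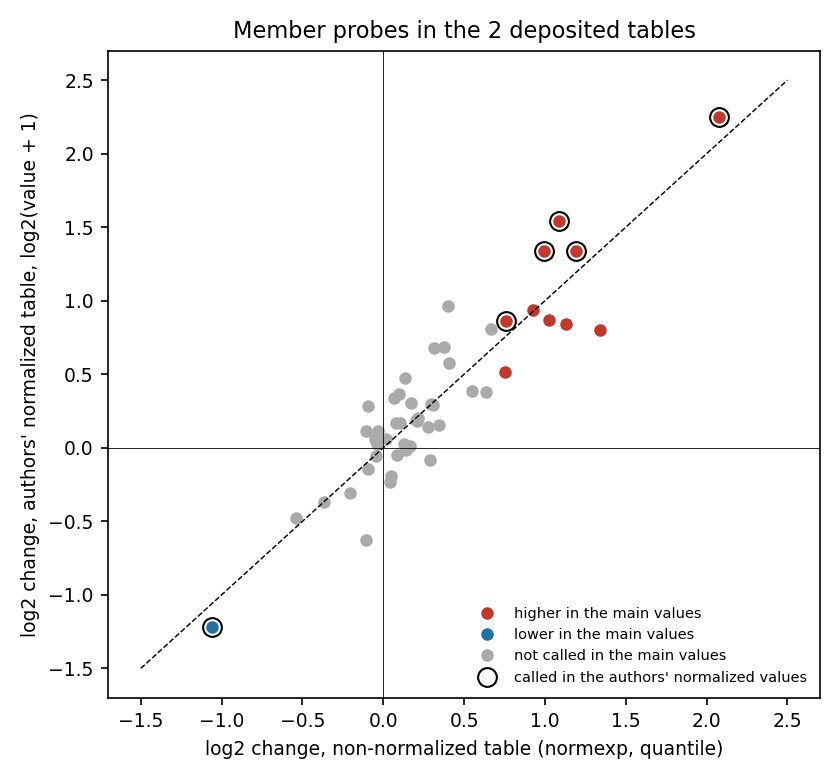
Log2 change of the 50 tested member probes in the authors' normalized table (vertical axis, log2 of value + 1) against that from the non-normalized table (horizontal axis), with a dashed line of equality. Red and blue points were called from the non-normalized table and black rings mark the 6 called from the normalized one; Ccl9 lies farthest right of the line among the unringed red points.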

How the data were processed

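Per the labels' protocols, biotin-labelled RNA was measured on Illumina BeadChips, 4 arrays in all (2 FtMT-Adip, 2 WT). The labels name MouseRef-8 v2, while each table holds 45281 probes, so the chip type is not settled. The authors deposited non-normalized intensity values, used for the main results, with background not subtracted, and normalized intensity values, whose method is not given in these sources. Per the file headers, the deposited tables also hold a ratio of group means and a p-value; an equal-variance test on the normalized values gives the same p-values (largest difference 2.8e-13). The series' value table equals the normalized one (largest difference 0). Another 8 per-array log columns were not used.

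Intensities were background-corrected with normexp (offset 50), quantile normalized, put on the log2 scale and fitted with limma 3.58.1 in R 4.3.3 (eBayes with a variance trend, two-sided, prior of 6.86 degrees of freedom). The script was tested on simulated data. Detection p-values were not used here; 1479 olfactory and vomeronasal receptor probes stood in as background. SE is the moderated standard error, and "at least" folds take a dim group at the lowest signal above background on each array. Old names were matched to RefSeq symbols of GRCm38.p6. In the lists a gene is its brightest tested probe. No scan date or slide is given. The members and lists were chosen with earlier results of these data known. A gene that the naming rule also takes is not reported here. Member probes get full values if called, among the 8 brightest, among the 8 next by p, or fixed by name (Ccl2, Ccl5, Cxcl10, Cxcl12, Ccr2, Cx3cr1, Cxcr4). Other members were named after their values were seen, to account for the family. From each list up to 4 called genes are named by change, and others named there were likewise chosen after their values were seen. Deviations of arrays with the same replicate number correlated at -0.0793, which does not settle whether the numbers pair the arrays.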

Additional observations from a re-analysis of the deposited data

How the results depend on the processing

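Leaving out each array in turn gave 9 to 11 higher and 0 to 2 lower member probes, 313 to 777 higher and 339 to 850 lower probes of all tested, and 3 to 8 higher and 1 to 2 lower partner genes. By limma no member was called lower when WT 1 or FtMT-Adip 1 was left out. Each such fit, also where named above, left 1 array in a group, so a probe's own spread came from the other group alone. Calls gained or kept in these fits are therefore a weak check. The changes of Ccl3, Ccl4, Ccl8, Ccl9, Ccl12 and Cxcl10 stayed positive whichever array was left out. They ranged from 0.797 (Ccl12 ILMN_3161805) to 2.42 (Ccl4 ILMN_1223257). With the replicate number as a block there were 9 higher and 0 lower member probes and 4 higher and 2 lower partner genes, and Pf4 and Cxcl14 lost their calls. Whether the numbers pair the arrays is not known. The authors' normalized values gave 322 higher and 377 lower probes of all tested, 5 higher members, and 3 higher and 0 lower partner genes. The deposited p-value, adjusted, gave 0 in every one of these counts (3 member probes and 929 higher and 929 lower probes of all tested at an unadjusted p under 0.05); it uses each probe's own spread. Without background correction, with an offset of 16, with median scaling, without a variance trend, with other filters or by genes, 8 to 11 members were higher and 1 lower. At the 99th percentile 45 member probes were above background. Among named members that were not called, signs turned with the left-out array. The change ranged from -0.0207 to 0.448 for Ccl5, -0.325 to 0.11 for Ccl11, -0.10 to 0.20 for Cxcl9, -0.10 to 0.376 for Ccl21a and -0.0662 to 0.15 for Cxcl12 ILMN_3158250. In the authors' values and in their ratio the change was -0.19 and -0.18 for Cxcl9, -0.0153 and -0.0204 for Ccl21a, and -0.23 and -0.27 for that Cxcl12 probe. The cause of these shifts was not tested. Probes near background, such as those of Ccl3 and Cxcl2 in WT, limit how large a change can be measured.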
